A study of Mus musculus with 43 samples.

Results

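The genes described are 10 genes of the fibroblast table, out of 52636 genes in it, selected by name and with their levels under regorafenib already known: 9 genes known from macrophages (Lyz2, Adgre1, Tyrobp, Fcer1g, Ptprc, Mrc1, Csf1r, Cd68 and Cd53) and Csf1, which encodes the growth factor that macrophages need. They were read in 19 RNA sequencing libraries of primary colon fibroblast cultures of C57B/6 mice. The cultures came from 4 lines, named M3, M3 (2), M1 (2) and M11, and each line was started from the colon tissue left after crypts had been removed, by enzyme digestion, straining and plating, with no sort named in the methods. Per the study's legends a line is 1 mouse, so a line is 1 biological replicate. The study's list of lines gives M3 and M3 (2) as wild-type males of 2 months and does not hold M1 (2) and M11. All 4 lines were grown for 7 days with 0.5% DMSO as vehicle (Ve), with 4 µM regorafenib (R4), with 1 µM autogramin-2 (A1) or with both (R4A1), and 3 lines, M11 left out, with 10 µM regorafenib (R10). Regorafenib is an inhibitor of several receptor tyrosine kinases. Autogramin-2 is an inhibitor of autophagy that binds the cholesterol transfer protein GRAMD1A.

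Values are CP20M, the reads of a gene scaled by the authors so that each library holds 20000000, with no division by gene length, so levels of a gene were compared between libraries. The steps between low values gave a depth of 7950000 to 12830000 counted reads a library, and 1 read was worth 1.56 to 2.52 CP20M, so a value under 10 rests on a handful of reads. In these cultures 8 fibroblast genes summed to between 110998 and 186156 CP20M. They also held RNA of other cells in amounts that differed by line. In vehicle, 8 endothelial genes summed to 14342 in M3 (2) and to between 1429 and 3922 in the other lines, and 4 genes of enteric glia summed to 14937 in M11 and to between 775 and 4712 in the others. The 10 lymphocyte markers summed to between 2 and 46 CP20M in all 19 libraries, with Cd3e, Cd3g, Ms4a1 and Ncr1 among those at 0 in every one, and 10 mast cell and granulocyte markers to between 5 and 99.

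Macrophages are the resident phagocytes of the gut wall. They are kept alive by signalling through the receptor tyrosine kinase CSF1R, whose ligands CSF1 and IL-34 are made largely by stromal cells such as fibroblasts. Their genes are switched on by the transcription factor PU.1, encoded by Spi1, which binds a purine-rich motif with GAGGAA at its centre. Among the members, Lyz2 encodes a secreted lysozyme, Adgre1 the surface protein F4/80, Mrc1 the mannose receptor CD206 and Ptprc the phosphatase CD45 of blood-derived cells. Tyrobp and Fcer1g encode adaptor proteins that carry the signal of activating receptors, Cd68 a lysosomal glycoprotein, and Cd53 a tetraspanin of leukocytes. In GRCm38, Lyz2 lies at chr10:117277331-117282321, Adgre1 at chr17:57358691-57483527, Mrc1 at chr2:14229392-14332057, Tyrobp at chr7:30413760-30417585 and Fcer1g at chr1:171229572-171234365. Ptprc lies at chr1:138062861-138175708, Cd68 at chr11:69664213-69666153, and Cd53 and Csf1 on the same chromosome at chr3:106759921-106790149 and chr3:107741048-107760469.

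Lyz2, Mrc1 and Cd53 all fell under regorafenib within every line but differed in likeness to the other macrophage members. Over the 19 libraries Lyz2 and Mrc1 correlated with the mean of the others at r = 0.97 and 0.96. For Cd53 it was 0.52 and for Cd68 0.44. Promoters are shown for 3 members, Lyz2, Mrc1 and Cd53. Each is 250 bases before to 50 bases after the RefSeq start (GRCm38.p6), 5′ to 3′ along the gene, at chr10:117282223-117282522 (minus strand), chr2:14229164-14229463 (plus strand) and chr3:106790100-106790399 (minus strand). Capitals mark GAGGAA or, on the other strand, TTCCTC.
Lyz2: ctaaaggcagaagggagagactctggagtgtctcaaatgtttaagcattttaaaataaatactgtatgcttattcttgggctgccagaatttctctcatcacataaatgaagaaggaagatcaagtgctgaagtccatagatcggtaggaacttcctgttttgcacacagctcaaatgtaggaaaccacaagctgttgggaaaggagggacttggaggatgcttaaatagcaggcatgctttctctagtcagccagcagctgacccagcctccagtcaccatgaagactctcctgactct
Mrc1: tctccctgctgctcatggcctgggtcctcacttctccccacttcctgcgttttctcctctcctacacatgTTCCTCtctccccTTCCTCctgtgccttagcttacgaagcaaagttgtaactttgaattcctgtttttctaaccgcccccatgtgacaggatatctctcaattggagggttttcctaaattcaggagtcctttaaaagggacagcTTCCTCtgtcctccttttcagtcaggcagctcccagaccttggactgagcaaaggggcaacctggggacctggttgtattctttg
Cd53: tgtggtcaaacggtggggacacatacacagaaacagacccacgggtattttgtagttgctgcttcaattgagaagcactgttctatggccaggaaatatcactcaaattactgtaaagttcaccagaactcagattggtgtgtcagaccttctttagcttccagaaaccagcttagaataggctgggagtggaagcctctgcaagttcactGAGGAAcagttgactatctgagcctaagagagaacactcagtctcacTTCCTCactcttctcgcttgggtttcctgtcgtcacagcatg
GAGGAA, on either strand, was present in the promoter of 4 of the 6 macrophage members that had one in the table (Cd53, Cd68, Mrc1 and 1 of the start sites of Ptprc) and in 28.3% of all 32851 promoters of this length. The first is a count of genes, and Ptprc also had a start site without the motif, while the share is of promoters. The 2 are therefore not like for like. The Mrc1 window held 3 copies, the Cd53 window 2 and the Lyz2 window 0, so the motif was found in Mrc1 and in Cd53 alike.

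In vehicle the macrophage genes differed by line, and line M11 held the most. Lyz2 stood at 1791 CP20M in M3, 674 in M3 (2), 1169 in M1 (2) and 4214 in M11. Mrc1 stood at 60, 19, 44 and 251 in the same order of lines, and Adgre1 at 39, 21, 40 and 152. M11 was therefore 2.35 times the next line for Lyz2, 4.18 times for Mrc1 and 3.8 times for Adgre1, and M3 (2) was lowest for all 3. Ptprc followed the same order of lines at its ends, with 46 CP20M in M3, 7 in M3 (2), 30 in M1 (2) and 133 in M11. Tyrobp read 46, 13, 28 and 93, and Fcer1g 22, 8, 32 and 74. Of the 9 macrophage members, 8 were highest in M11 and 8 lowest in M3 (2). Cd53 was the exception at the top, with 1160, 961, 918 and, lowest of all, 640 in M11. The share of all genes highest in M11 was not counted. Among other lists, 4 of 4 glial and 5 of 8 fibroblast genes were highest there, and 1 of 8 endothelial and 0 of 10 proliferation genes. Because there is 1 vehicle library a line, these differences between lines have no test. M11 was also the line with the most glial RNA, and the part of this in the macrophage values was not tested. In bulk RNA, fewer macrophages in a culture and less of a gene's RNA in each macrophage cannot be told apart.

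**Figure D1:**
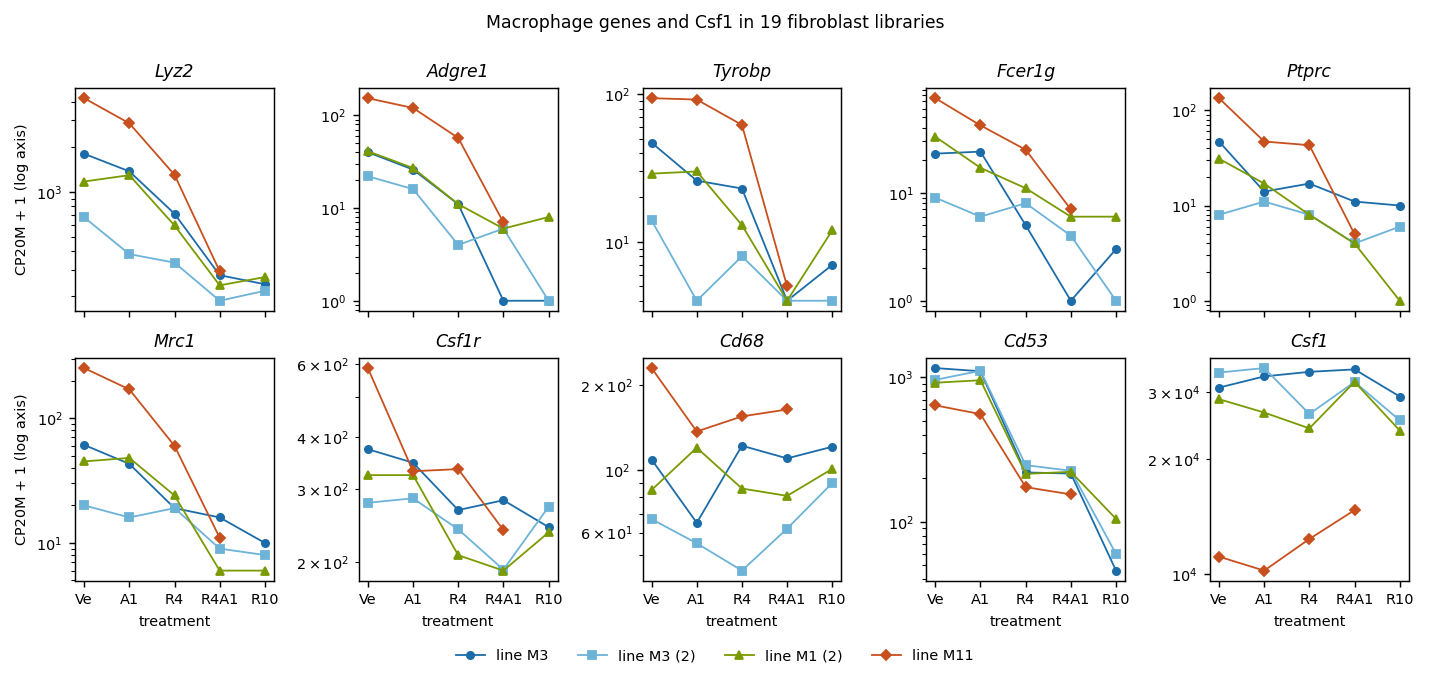
Level of each of the 10 genes in the 19 fibroblast libraries, as CP20M + 1 on a log axis, by treatment (Ve vehicle, A1 autogramin-2, R4 and R10 regorafenib at 4 and 10 µM, R4A1 both); a point is 1 library and a line joins the libraries of 1 line. Lyz2 starts between 674 and 4214 in vehicle and ends between 217 and 268 at R10, Cd53 runs the same course in all 4 lines, and Csf1 keeps line M11 apart, between 10227 and 14724.

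The changes under regorafenib are the values on which the genes were chosen, so they are given as a description and without a test. Lyz2 fell in each line at 4 µM, to 712 in M3, 335 in M3 (2), 594 in M1 (2) and 1296 in M11, which is 30.8% to 50.8% of the same line's vehicle. At 10 µM it stood at 240, 217 and 268 in M3, M3 (2) and M1 (2), or 13.4% to 32.2%. The groups at 4 µM and in vehicle overlapped, since M11 at 4 µM lay above vehicle of M3 (2) and M1 (2), and the fall showed only within lines. Endothelial RNA moved the other way at 4 µM, where the sum of the 8 endothelial genes stood at 157% of vehicle in M3, 277% in M3 (2), 338% in M1 (2) and 303% in M11, while at 10 µM it stood at 133%, 58.5% and 89.1% in the first 3. Its part in the values of the macrophage genes was not tested. Lyz2 shares its sequence closely with the neighbouring lysozyme gene Lyz1, which read 0 to 70 CP20M here, and reads of the pair may be split between them.

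Adgre1, Mrc1, Tyrobp, Fcer1g and Ptprc went down to a few reads. Adgre1 at 4 µM read 10 in M3, 3 in M3 (2), 10 in M1 (2) and 56 in M11, and at 10 µM it was at 0 in M3 and M3 (2) and at 7 in M1 (2). A count of 0 allows up to 3 reads, 5.18 CP20M in that M3 library and 6.99 in that M3 (2) library. Mrc1 read 18, 18, 23 and 59 at 4 µM and 9, 7 and 5 at 10 µM. Tyrobp read 22, 7, 12 and 61 at 4 µM and 6, 3 and 11 at 10 µM. Adgre1, Mrc1 and Tyrobp lay below their own vehicle in every line at both doses, and at 10 µM the 3 lines lay between 0 and 11 CP20M for all 3 genes. Fcer1g read 4, 7, 10 and 24 at 4 µM and 2, 0 and 5 at 10 µM. Ptprc read 16, 7, 7 and 42 at 4 µM, which in M3 (2) equalled its vehicle of 7, and 9, 5 and 0 at 10 µM. In line M3 (2) both genes were near the limit of detection already in vehicle, at 7 and 8 CP20M.

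Counted over all members, 7 of the 10 were lower at 4 µM than in their own vehicle in 4 of 4 lines, against 16.3% of the 16982 genes with at least 20 CP20M in at least 2 libraries. At 10 µM 9 of 10 were lower in 3 of 3 lines (33.5% of genes), and in the combination 8 of 10 in 4 of 4 (22.8% of genes). These counts repeat the values used for the choice and support nothing further.

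Cd53 fell evenly over the lines. It read 219 in M3, 246 in M3 (2), 214 in M1 (2) and 173 in M11 at 4 µM, which is 18.9% to 27% of vehicle, and 45, 59 and 104 in M3, M3 (2) and M1 (2) at 10 µM, which is 3.88% to 11.3%. No library with regorafenib reached the lowest library without it, 556 in M11 with autogramin-2, and the share of all genes that did so was not counted. In the combination Cd53 read 215 in M3, 225 in M3 (2) and 221 in M1 (2) and stood at 24.1% of vehicle in M11, or 89% to 103% of the level at 4 µM over the 4 lines, where Lyz2 stood at 22.6% to 55.5%. Across the 19 libraries the log2 level of Cd53 correlated with the mean of the other macrophage members at r = 0.52, against 0.97 for Lyz2, 0.96 for Mrc1 and for Adgre1, 0.95 for Fcer1g, 0.93 for Tyrobp, 0.91 for Ptprc and 0.87 for Csf1r. Cd68, at 0.44, was lower than Cd53. The correlation of Cd53 with the fibroblast gene Pdgfra, a receptor tyrosine kinase, was 0.84 and with the cell cycle gene Mki67 0.74. Lyz2 correlated with Pdgfra at 0.55 and with Mki67 at 0.5. The genes nearest to Cd53, looked up after its values were seen, were Gda, Arpc1b and Hmga1 (r = 0.98, 0.97 and 0.97), none of which is on a list of macrophage genes used here. These correlations share libraries, lines and treatments and are descriptions. Which cells made Cd53 was not tested.

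Csf1r, the receptor for CSF1, and Cd68 stayed nearest to vehicle among the macrophage members at 10 µM. Csf1r read 373 in M3, 277 in M3 (2), 323 in M1 (2) and 585 in M11 in vehicle, 266, 239, 207 and 334 at 4 µM, and 242, 271 and 235 in M3, M3 (2) and M1 (2) at 10 µM. It was 57.1% to 86.3% of vehicle at 4 µM and 64.9% to 97.8% at 10 µM, and unlike Adgre1 it kept 190 CP20M or more in all 19 libraries. The Csf1r gene (chromosome 18, 61100598 to 61132149, plus strand) overlaps Hmgxb3 on the other strand, which read 1169 to 1466 in the fibroblasts. Whether reads were counted by strand is not settled by the sources used here, and reads of the pair could then not be told apart, so the floor of Csf1r may not be its own. Cd68 read 108, 66, 84 and 229 in vehicle, and 120, 89 and 100 in M3, M3 (2) and M1 (2) at 10 µM. At 4 µM it read 121, 43 and 85 in those 3 lines and stood at 67.2% of vehicle in M11. It was higher at 10 µM than in vehicle in all 3 lines, at 111% to 135%, and M11 was its highest line in every treatment that M11 has. Without M11, which has no 10 µM library, the fitted 10 µM difference of Cd68 was 0.23 on the log2 scale, against -0.09 over all lines.

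**Figure D2:**
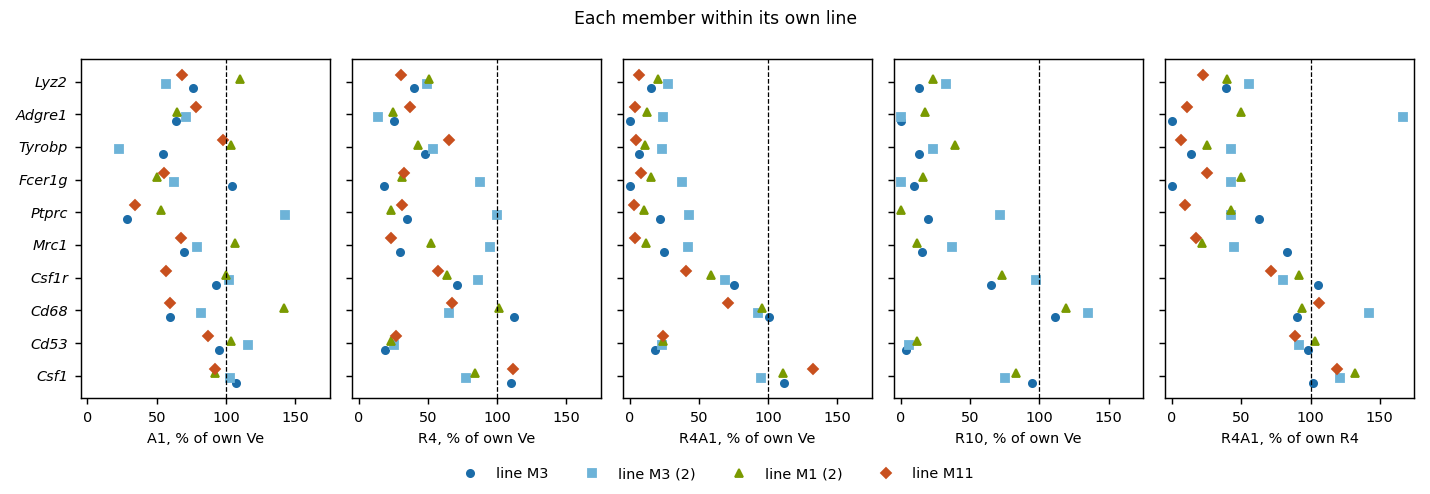
Each gene as a percent of the vehicle library of its own line (first 4 panels) or of the 4 µM library of its own line (last panel); a point is 1 line and the dashed line marks 100%. Cd53 lies between 18.9% and 27% of vehicle at R4, while R4A1 against R4 leaves Cd53 between 89% and 103% and puts Lyz2 between 22.6% and 55.5%.

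The members were tested in 2 further comparisons in the fibroblasts. Both use libraries that were read for the choice, so neither is independent of it. The first was autogramin-2 against vehicle, and it gave no call. With limma over 11032 genes no gene was called, that is 0% lower and 0% higher at an adjusted p under 0.05 with at least 1.5-fold change. An unadjusted p under 0.05 was seen for 120 genes, 1.09% of those tested. Cd53, Csf1r, Lyz2 and Csf1 were among the genes tested. The other 6 members had to be tested with a lower filter of 20 CP20M in 2 libraries (16982 genes, 0% called lower). Lyz2 read 1367 in M3, 382 in M3 (2), 1289 in M1 (2) and 2863 in M11 with autogramin-2. It was lower than vehicle in 3 of 4 lines, at 56.7% to 110% of vehicle, and the log2 difference was -0.4 (SE 0.55, n = 4 a group, adjusted p = 1 with limma). Cd53, with 1102, 1111, 955 and 556, differed by less than 0.01 on the log2 scale (SE 0.24, n = 4, adjusted p = 1 with limma). Of all 10 members only Adgre1 was lower than vehicle in 4 of 4 lines, with 25, 15, 26 and 119 (12.8% of genes were lower in every line), and its log2 difference was -0.33 (SE 0.46, adjusted p = 1 with limma). With the line as a block, so that each culture is compared with its own vehicle, the smallest adjusted p among the members was 0.702, for Ptprc, and again 0% of genes were called lower.

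The second was the combination against 4 µM regorafenib alone, and here 5 members, Lyz2, Tyrobp, Fcer1g, Ptprc and Mrc1, were lower in 4 of 4 lines (15.4% of genes were). In the combination Lyz2 read 276 in M3, 186 in M3 (2), 236 in M1 (2) and 293 in M11. That is 38.8% of the same line's level at 4 µM in M3, 55.5% in M3 (2), 39.7% in M1 (2) and 22.6% in M11. Tyrobp came down to 3, 3, 3 and 4, from 22, 7, 12 and 61. Mrc1 read 15, 8, 5 and 10, Fcer1g 0, 3, 5 and 6, and Ptprc 10, 3, 3 and 4, while Adgre1 read 0, 5, 5 and 6 and was higher than at 4 µM in M3 (2). Line M11, which still stood apart at 4 µM, was thus at the level of the other lines in the combination.

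As designed, with no term for the line, none of these differences passed: for Lyz2 the log2 difference was -1.36 (SE 0.55, n = 4 a group, adjusted p = 0.87 with limma). In that fit 0.00906% of genes were called lower and 0% higher, the 1 gene being Txnip. The groups are the same 4 lines, so the fit with the line as a block is given beside it. There Lyz2 passed, with the same difference and an SE of 0.26 (adjusted p = 0.0171 with limma and the block, lower in 4 of 4 lines, 1.41% of genes called lower). With the lower filter its adjusted p was 0.0151, and 1.38% of genes were called lower (0.00589% without the block). The call depends on 2 lines: without M11 the difference was -1.12 and the adjusted p 0.0793, and without M1 (2) they were -1.39 and 0.219. Without M3 or M3 (2) the adjusted p was 0.0252 and 0.00322. No other member was called with the block, the nearest being Tyrobp, with a log2 difference of -0.83 (SE 0.24, adjusted p = 0.0721 with limma and the block). Tyrobp passed with a pseudocount of 2 in place of 20 (adjusted p = 0.0311 with limma and the block) and without line M3 (2) (log2 -1.03, adjusted p = 0.0432). Cd53 differed by -0.06 (SE 0.15, adjusted p = 0.856 with limma and the block). Because the genes were chosen on regorafenib and combination libraries that enter this comparison, it is not independent of the choice. RNA of other cells moved in the same comparison: the endothelial sum went from 39759 to 23961 in M3 (2), from 9167 to 2501 in M1 (2) and from 11865 to 2516 in M11, but from 2240 to 2629 in M3, and the cell cycle sum was lower in 4 of 4 lines. Their part in the Lyz2 result was not tested.

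**Figure D3:**
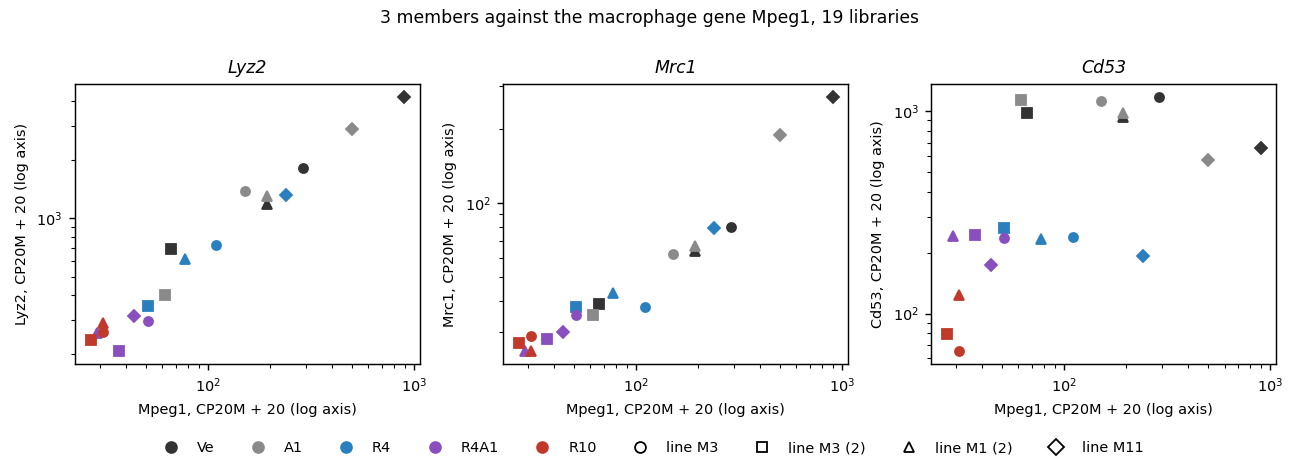
Lyz2, Mrc1 and Cd53 against Mpeg1, each as CP20M + 20 on log axes, in 19 libraries; colour gives the treatment and the marker the line. Mpeg1 was taken as the gene most like the mean of the 9 macrophage members, which holds all 3 genes, so the plot shows that likeness and is no test of it. Lyz2 and Mrc1 lie along 1 path with Mpeg1 from the R10 and R4A1 libraries up to the vehicle library of M11, whereas Cd53 falls into levels by regorafenib dose, with M11 lowest among the libraries without regorafenib.

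Other genes were ranked by their likeness to the members in the same libraries, so that they follow the members is no test. The 12 genes outside the members whose log2 levels were most like the mean of the 9 macrophage members over the 19 libraries began with Mpeg1, which encodes a pore-forming protein of phagocytes (r = 0.99), C1qb, a chain of complement C1q (0.97), Mmp12, the macrophage elastase (0.96), and Cd36, a scavenger receptor (0.95). After Igfbp5 and Psme4 at 0.92 came Ctss, the lysosomal protease cathepsin S (0.91), then Suv39h1, Baiap2, Gpr153, Clip2 and Adam8 between 0.9 and 0.91. Of the 12, Mpeg1, C1qb and Ctss are on the macrophage lists used here, and the others are on no list. Like 8 of the 9 members to which they were matched, all 12 were highest in M11 among the vehicle libraries. Mpeg1 read 268 in M3, 46 in M3 (2), 174 in M1 (2) and 879 in M11 in vehicle, 90, 31, 57 and 220 at 4 µM, 31, 17, 9 and 24 in the combination, and 11, 7 and 11 at 10 µM in the 3 lines. C1qb went from 84, 13, 68 and 467 in vehicle to 0, 5 and 0 at 10 µM in M3, M3 (2) and M1 (2).

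Of 20 macrophage receptors and complement genes, 14 reached 20 CP20M in 2 libraries. Without a term for the line 0 of them were called lower at 4 µM (0.324% of all genes), 7 at 10 µM (4.22%) and 2, Fcgr2b and Fcgr3, in the combination against vehicle (1.08%), and 0 were called higher. With the line as a block 8 were called lower at 4 µM (2.7% of all genes), 11 at 10 µM (8.49%) and 11 in the combination (5.11%). Their median log2 change without the block was -0.76, -1.49 and -1.44, against 0.01, -0.04 and -0.03 over all genes. M11, where the 20 genes summed to 2596 CP20M in vehicle against 684 to 773 in the other lines, has no 10 µM library. The 10 µM values and calls without the block therefore also hold this difference between lines. C1qa, C1qb and C1qc, the 3 chains of C1q, were all called lower at both doses and in the combination with the block. For C1qa the log2 difference at 4 µM was -1.37 (limma with the block, SE 0.33, adjusted p = 0.00769). Itgam, which encodes the integrin CD11b, differed by -1.48 at 4 µM (SE 0.31, adjusted p = 0.00296 with limma and the block). The lists here and below were chosen with earlier results of these data known. C1qa, Itgam and other further examples were picked after their values were seen. The calls and p-values are therefore not independent of the choice. Mertk, a receptor for dying cells, was not called in any of the 5 comparisons: it was highest in M3 (2), the line rich in endothelial RNA, in vehicle and at 4 µM, with 383 and 952 CP20M. Folr2, on the same list, was above vehicle at 10 µM in 3 of 3 lines, at 137% to 180%. Its vehicle levels were low, 15 to 36 CP20M over the lines. Cd163, Marco and Timd4, markers of other macrophage states, stayed at 3 CP20M or less in every library.

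Among 20 genes of macrophage signalling, cytoskeleton and lysosome, 17 reached the lower filter. Of these 0 were called lower at 4 µM (0.324% of all genes), 2 (Mpeg1 and Cybb) at 10 µM (4.22%) and 0 in the combination (1.08%). With the block 5, 10 and 14 were called lower, beside 2.7%, 8.49% and 5.11% of all genes. At the higher filter of 200 CP20M the lone gene called in these lists was Mpeg1, at 10 µM (log2 -3.02, SE 0.76, adjusted p = 0.0135 with limma), where 4.09% of genes were called lower and 3.25% higher. That call was lost without M3, M1 (2) or M11, and with the line as a block Mpeg1 was at 16.3% of vehicle (log2 -2.615, adjusted p = 0.00012 with limma and the block). M11, the line highest in Mpeg1 in vehicle, has no 10 µM library, so the difference without the block also holds a difference between lines. At 4 µM that filter called 0 genes of these lists (0.354% of all genes lower, 0.671% higher), and in the combination against vehicle also 0 (0.925% lower, 0.734% higher). With the block, genes of this list that were lower in the combination than at 4 µM alone, as Lyz2 was, included Ctss, with a log2 difference of -1.67 (SE 0.25, adjusted p = 0.00443 with limma and the block), and Laptm5, a lysosomal membrane protein, with -0.87 (SE 0.21, adjusted p = 0.0404 with limma and the block). Without the block 0 genes of the list were called there. Of the 5 myeloid transcription factors, Spi1 read 24, 4, 9 and 38 in vehicle and 4, 3 and 0 at 10 µM in the lines in order, and it was called lower only with the block and in the combination against vehicle (log2 -0.73, SE 0.18, adjusted p = 0.00789 with limma and the block). Irf5 read 320 to 488 in all libraries and was not called. Irf8 was highest at 4 µM in M3 (2), with 244. MHC class II genes summed to 128 to 317 CP20M with 0 of the 3 testable genes called in any comparison, and the dendritic cell genes to 44 to 181.

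Csf1, the ligand, stood at 10227 CP20M or more in every fibroblast library and kept close to vehicle within lines. It read 30790 in M3, 33715 in M3 (2), 28716 in M1 (2) and 11124 in M11 in vehicle. At 4 µM it read 33856, 26262, 24086 and 12373, and at 10 µM 29183, 25277 and 23775. M11, the line with the most macrophage RNA, was lowest in Csf1 in each of its 4 treatments. Within lines Csf1 was 77.9% to 111% of vehicle at 4 µM, 75% to 94.8% at 10 µM and 94.5% to 132% in the combination. M11 has no 10 µM library, and the fitted 10 µM difference was 0.11 on the log2 scale without a term for the line and -0.22 with the block. Against 4 µM alone the combination was higher in 4 of 4 lines, with a log2 difference of 0.24 (SE 0.09, adjusted p = 0.145 with limma and the block), which did not pass.

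Some of the 8 other ligands for myeloid cells fell. Il34, the second ligand of CSF1R, read 55, 46, 183 and 283 in vehicle for M3, M3 (2), M1 (2) and M11 and was not called in any comparison (10 µM against vehicle log2 -0.25, SE 0.15, adjusted p = 0.25 with limma and the block). Ccl2 and Ccl7, chemokines that draw monocytes, had log2 differences of -2.21 and -1.69 at 10 µM (limma, SE 0.53 and 0.28, adjusted p = 0.0101 and 0.000933). Kitl, the ligand of the receptor KIT, differed by -1.6 at 10 µM (SE 0.46, adjusted p = 0.0282 with limma). M11 has no 10 µM library, and with the block the log2 differences of Ccl2, Ccl7 and Kitl were -2.005, -1.596 and -1.645. Altogether 3 of the 8 ligands, 5 of them testable, were called lower at 10 µM (4.09% of all genes) and 1, Ccl7, in the combination against vehicle (0.925%), with 0 called higher. With the block, 2 were called lower at 4 µM (Cxcl12 and Kitl; 2.65% of all genes), 4 at 10 µM (7.71%) and 4 in the combination (4.33%), at the filter of 200 CP20M. Ccl7 was then also lower in the combination than at 4 µM alone (log2 -0.6, adjusted p = 0.033 with limma and the block). Beside these, 9 of the 9 testable genes of proliferation were called lower at 10 µM (4.09% of all genes), and the 10 µM libraries held the least cell cycle RNA, 1255 to 1621 CP20M against 4945 to 7539 in vehicle. At 4 µM the cell cycle genes ranged from 2055 to 6622 and 0 were called. The part of this in the macrophage values was not tested.

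The same genes were read in the 24 organoid libraries, grown for 6 days with vehicle, 4 or 8 µM regorafenib or 1 µM of the antimetabolite 5-FU, 3 libraries each. The colonoids M1, M40 and M41 carried Vil-cre/ERT2 and wild-type Apc. The tumoroids F11, M14 and M3 carried Vil-cre/ERT2 and Apc flox/flox, and mice of both kinds had been given tamoxifen, so that Apc was recombined in the epithelium of the latter. Some macrophage members were at or near 0 there and others were not. Lyz2 was at 0 in 22 of 24 libraries and at 4 at most, Tyrobp at 0 in 21, and Ptprc read 0 to 7 and Fcer1g 0 to 10. Cd53 was at 0 in 1 library and read up to 128, with 24 to 79 in vehicle in colonoids and 16 to 128 in tumoroids. Mrc1 read up to 239 and Cd68 up to 2659. Adgre1 was at 0 in 21, and its highest value, 40, is the smallest value above 0 in the shallowest library, colonoid M41 at 4 µM. Csf1r read 352 to 625 in all of them, with Hmgxb3 at 1918 to 2951, against 190 to 585 and 1169 to 1466 in the fibroblasts.

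**Figure D4:**
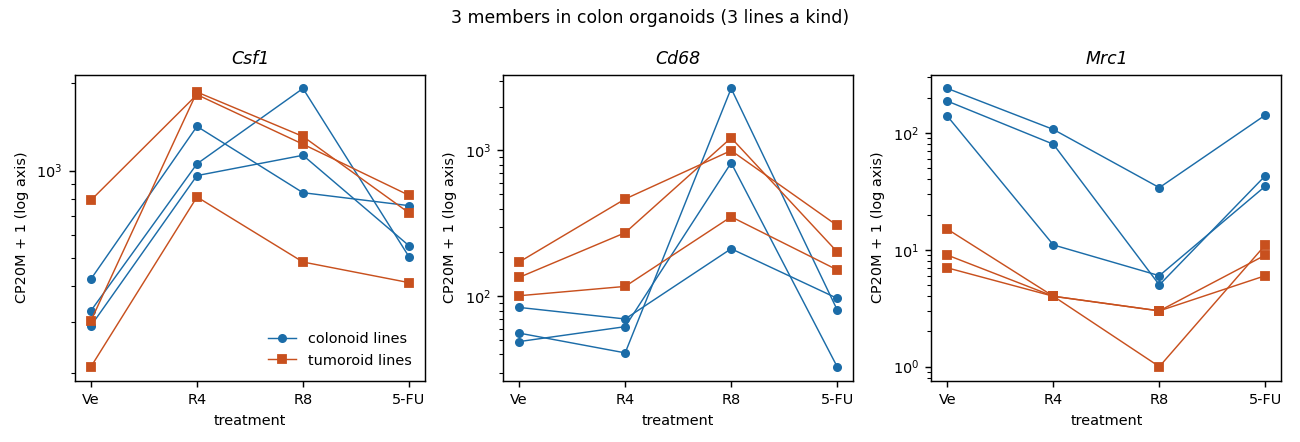
Csf1, Cd68 and Mrc1 in 24 organoid libraries, as CP20M + 1 on a log axis, by treatment (Ve vehicle, R4 and R8 regorafenib at 4 and 8 µM, 5-FU); blue circles are 3 colonoid lines, orange squares 3 tumoroid lines, and a line joins the libraries of 1 organoid line. Cd68 is highest at R8 in all 6 lines, Csf1 lies above vehicle at R4 in all 6, and Mrc1 starts at 138 to 239 in colonoids and 6 to 14 in tumoroids.

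Csf1, Cd68 and Csf1r reached the filter of 200 CP20M among 11562 organoid genes, and limma was run as in the fibroblasts, a test added after the values had been seen. Cd68 read 48 to 83 in colonoids and 100 to 171 in tumoroids in vehicle. At 8 µM it read 211, 821 and 2659 in colonoids M1, M40 and M41 and 350, 997 and 1219 in tumoroids F11, M3 and M14. It rose 9.97-fold in colonoids (log2 3.32, SE 0.64, n = 3, adjusted p = 0.00162 with limma, 15.3% of genes called) and 5.09-fold in tumoroids (log2 2.35, SE 0.64, n = 3, adjusted p = 0.0335 with limma, 6.23% called). At 4 µM it was not called in either (adjusted p = 0.938 and 0.557 with limma). In the 8 µM libraries Lyz2 was at 0 in all 6, Tyrobp at 2 CP20M or less, Fcer1g at 4 or less and Ptprc at 5 or less.

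Csf1 read 291 to 422 in colonoids and 210 to 790 in tumoroids in vehicle. At 4 µM it read 960 to 1419 and 810 to 1864, higher than vehicle in 6 of 6 lines. The share of all genes higher in every line was not counted. Csf1 rose 3.16-fold in colonoids (log2 1.66, SE 0.45, n = 3, adjusted p = 0.0259 with limma, 10.2% of genes called) and 3.63-fold in tumoroids (log2 1.86, SE 0.45, n = 3, adjusted p = 0.0243 with limma, 3.7% called). At 8 µM it rose 3.42-fold in colonoids (adjusted p = 0.0105 with limma), and in tumoroids the 2.4-fold difference did not pass (adjusted p = 0.102 with limma, 0.00885 with the line as a block). The responses of the 2 kinds of organoid were not shown to differ, with adjusted p of 0.875 or more for the difference at either dose in all 3 genes (limma). None of the 3 genes was called with 5-FU in colonoids (0.0432% of genes called) or tumoroids (0.182%), or between tumoroids and colonoids in vehicle (2.06%). Mrc1 was under the filter: it read 138, 239 and 186 in vehicle in colonoids M1, M40 and M41, and 5, 33 and 4 at 8 µM, and in tumoroids it never passed 14.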

How the data were processed

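Reads were trimmed with Trimmomatic 0.36, aligned to GRCm38 with STAR 2.5.3a and counted per gene with HTSeq 0.9.1, as the submitters' processing notes and the study's methods name them. The deposited signal values are these counts, scaled by the authors to 20000000 a library and rounded up to whole numbers. The study's legends call CP20M a value per kilobase, but every column sums to about 20000000 and a read is worth the same in all genes, so no division by length was made. The kit named in the labels differs from that in the methods, and strand is not given in the sources used here. Libraries were grouped by the condition and line in their labels, and 1 M3 library with both compounds, whose title names no line, by the name in its description.

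The 10 genes and all lists were chosen with earlier results of these data known. Values were analysed as log2(CP20M + 20). All 19 libraries entered 1 linear model with a coefficient per group, in limma (version 3.58.1, under R version 4.3.3), with moderated variances that follow a trend on the level. Genes with at least 200 CP20M in at least 2 libraries were tested (11032, of which 4 are members). Adjusted p-values are Benjamini-Hochberg values over every gene tested. Without the block they set a difference against the spread between lines, and with it against the spread left after the line term. Genes were called at an adjusted p under 0.05 and at least 1.5-fold. Where the report adds the block, the line was a further term. Libraries of the same line are the same cells: their deviations from the group means correlated at 0.34 to 0.95 (36 of 36 pairs over 0.1). A paired comparison is therefore due, and p-values given with limma and no mention of the block are not paired. No 2 columns were identical. From each list, genes called were named first by level in vehicle, otherwise the 2 with the highest mean CP20M, a ranking that takes no account of length, and further examples were picked after their values were seen. Some genes of the lists are not reported here by name. Depth was estimated from the steps between low values. The limma scripts and the depth estimate were tested on simulated data. Positions are from GENCODE M21 and promoters from RefSeq (GRCm38.p6).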

Additional observations from a re-analysis of the deposited data

Results flagged for a closer look

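In groups of 4 libraries, a member was noted where 1 library stood far from the other 3 by Dixon's criterion, the gap to the nearest library as a share of the group's range. For independent and normally distributed values, chance puts this past the limit in about 1 group in 20. The groups here share the same 4 lines and members that move together, some at a few reads, so that rate is no measure for the count below. Of 40 groups 10 were noted. Line M11 was the distant library in 8. Adgre1 was high there in vehicle (152, others 21 to 40, gap share 0.855), with autogramin-2 (119, others 15 to 26, 0.894) and at 4 µM (56, others 3 to 10, 0.868). Ptprc was high there with autogramin-2 (46, others 10 to 16, 0.833) and Mrc1 at 4 µM (59, others 18 to 23, 0.878). In the combination Cd53 was low in M11 (24.1% of its vehicle of 640, others at 215 to 225 CP20M, 0.859), Csf1 was low (14724, others 31856 to 34356, 0.873) and Tyrobp read 4 against 3 in each other line, a gap smaller than 1 read (gap share 1). Line M3 was the distant library in the combination for Adgre1 (0, others 5 to 6, 0.833) and Ptprc (10, others 3 to 4, 0.857), both a matter of a few reads.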

How the results depend on the processing

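Counts of genes called moved most with the line as a replicate block. It gave 797 genes at 4 µM (113 without), 1519 at 10 µM (809 without), 771 in the combination against vehicle (183 without) and 158 in the combination against 4 µM (1 without). With the block and the lower filter they were 1206, 2413, 1254 and 246. With the lower filter alone the combination against vehicle gave 278, and with TMM-scaled values the combination against 4 µM gave 0. Leaving out 1 line in turn gave 28 to 317 genes at 4 µM, 358 to 1118 at 10 µM, 32 to 359 in the combination against vehicle and 0 to 0 in the combination against 4 µM; the highest counts came without M11. Autogramin-2 gave 0 genes in all alternatives run. Signs turned for Csf1, Cd68 and Cd53 (log2 differences). At 10 µM Csf1 was 0.114, with the block -0.223 and without M11 -0.255, and Cd68 was -0.087, 0.141 and 0.226. At 4 µM Csf1 was -0.081, and 0.012 without M3 (2). In the combination against 4 µM Cd68 was 0.059, and -0.042 without M3 (2). With autogramin-2 Cd53 was 0.018 with TMM-scaled values and -0.071 to 0.063 with 1 line left out (0.022 without M3), and Csf1 -0.066 to 0.007 (0.005 without M1 (2)), on the log2 scale. Of the 3 macrophage lists, 0 genes were called at 4 µM, 1 at 10 µM and 0 in the combination against vehicle; with the block 2, 3 and 4, with the lower filter 0, 9 and 2, with both 14, 22 and 27, with no filter 0, 4 and 1, and with a pseudocount of 2 0, 2 and 1. Of all genes, 2.65%, 7.71% and 4.33% were called lower with the block and 0.324%, 4.22% and 1.08% with the lower filter. With both, the shares were 2.7%, 8.49% and 5.11%. Against 4 µM the combination gave 0 genes of these lists, 1 with the block (1.41% of all genes lower) and 3 with block and lower filter (1.38%).

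The summed level of the 9 macrophage members was 40.81% of the line's own vehicle at 4 µM, 27.55% at 10 µM, 26.49% in the combination and 87.17% with autogramin-2 (medians over lines), and 64.93% in the combination against 4 µM. As a mean of log2 values the first 3 were 54.67%, 43.86% and 41.93%. Without Cd53, 4 and 10 µM gave 50.61% and 36.06%. Without Cd53, Csf1r and Cd68 the combination gave 17.16% of vehicle and 39.02% of 4 µM, and autogramin-2 71.15%. Without Lyz2 the combination was 88.84% of 4 µM. Beside Lyz2 in the combination against 4 µM and Csf1 in tumoroids at 8 µM, the block changed no call of a tested member. TMM moved the median of all genes by less than 0.1 (log2). edgeR and DESeq2 were planned and not run, since the values are rounded up and not counts. Low members rest on a few reads a library, so small falls were not detectable at this depth.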
